A study of Homo sapiens with 2 samples.

Results

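The transcriptional cyclin-dependent kinases (CDKs) and their cyclins were examined for chromatin occupancy by the MYB family transcription factor MYBL2 in A673 cells. The set held 10 of 20098 protein-coding genes, namely the kinases CDK7, CDK8, CDK9, CDK12, CDK13 and CDK19 and the cyclins CCNT1, CCNT2, CCNK and CCNH. It was picked because the CDK12 promoter held the peak with the largest fold enrichment of the deposited list. All peak values below come from that same comparison of ChIP with input, so they are given as a description with no test. A gene counted as bound when a peak overlapped, by at least 1 base, 1000 bp up- or downstream of any of its annotated transcription start sites (TSSs).

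A673 is an established Ewing sarcoma cell line, used here without a genetic change or treatment (labelled WT). Crosslinked chromatin was immunoprecipitated with a rabbit monoclonal antibody that the labels describe as anti-MYBL2 and the study's methods as directed at the phosphorylated, activated protein. The series comprised 1 ChIP library, 1 library of input DNA from the same cell line, and 1 peak list in which the ChIP was set against the input. Whether both libraries came from the same chromatin preparation is not stated. With 1 library per group there was no replicate error and no check against a second culture.

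Transcriptional CDKs act on RNA polymerase II and on the factors that travel with it, rather than driving the cell cycle directly. CDK7 with cyclin H sits in the general factor TFIIH and acts at initiation, CDK8 and CDK19 with cyclin C form the kinase module of Mediator, CDK9 with cyclin T forms P-TEFb and releases paused polymerase, and CDK12 and CDK13 with cyclin K act during elongation. CDK12 is known for sustaining the expression of long genes, among them genes of DNA repair. MYBL2, with the MuvB complex, is known for activating genes of late cell cycle phases.

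The list held 66954 peaks with a median fold enrichment of 3.79 (range 1.54 to 64.9), where fold enrichment is the authors' ratio of ChIP fragments at the peak's highest point (its summit) to the local background, each with 1 added. The fragments stacked at a summit (the pileup) and the local background were recovered from the deposited values. Their 95% intervals are exact Poisson intervals that treat the background as known and cover counting error only, since duplicated fragments are not independent molecules. The background floor corresponded to about 56800000 ChIP reads, if fragments were as long as the narrowest peak, 164 bp.

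All 10 genes had a peak at a promoter, against a background of 59.4% of protein-coding genes. All 10 also had a CpG-rich promoter, with an observed/expected CpG ratio from 0.748 (CDK7) to 0.897 (CCNT2), and 79.1% of protein-coding genes with such promoters (ratio of at least 0.6) were bound. A promoter peak with a fold enrichment of at least 5 was present at 10 of the 10 genes and at 49.6% of protein-coding genes. At a fold enrichment of at least 10 the count was 9 of 10, with CDK7 below the limit, against 23.1% of protein-coding genes and 32.7% of those with CpG-rich promoters. Because the set was chosen by the strongest of these peaks and its other genes with results known, nothing is read from these counts. The median of the best promoter peaks was 13.7 over the 10 genes and 13.5 without CDK12, and 8.67 over the 11941 bound protein-coding genes.

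**Figure D1:**
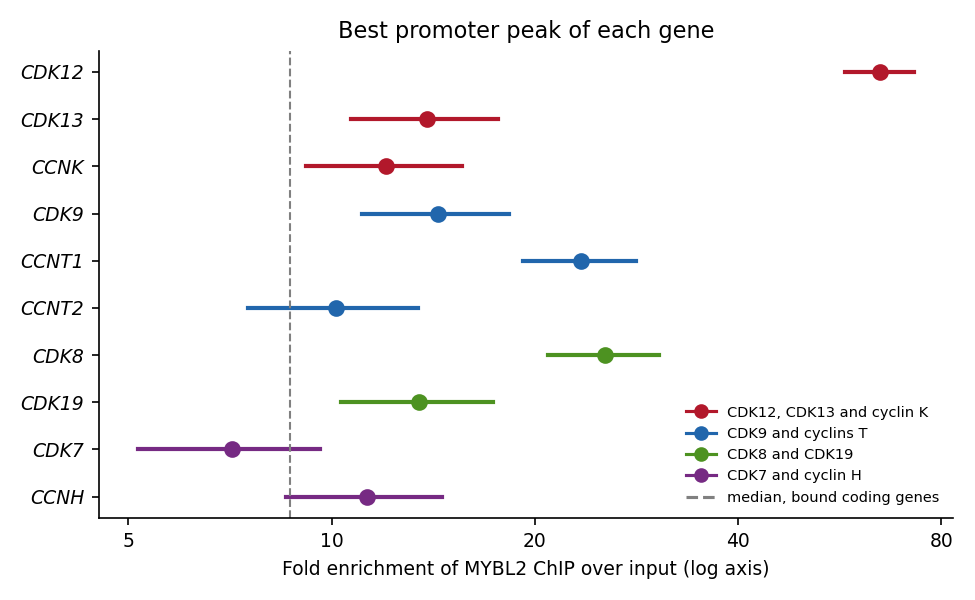
Fold enrichment of the best promoter peak (horizontal log axis) for each of the 10 genes, with bars for the 95% counting interval, colours for the complexes and a dashed line at the median of bound protein-coding genes (8.67). CDK12 stands at 64.9, CDK8 and CCNT1 follow at 25.4 and 23.4, and CDK7 is lowest at 7.12.

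CDK12 stood apart in peak strength from CDK13 and from their shared partner cyclin K, though the set was picked on the CDK12 peak. The CDK12 promoter (ENSG00000167258, plus strand) carried a peak at chr17:37617326-37618230 (GRCh37, the coordinates of hg19) with a pileup of 288 fragments (95% interval 255.7 to 323.3) over a background of 3.45, a fold enrichment of 64.9 (57.7 to 72.8) and a −log10 q of 423.8. It ranked 1 of 66954 peaks by fold enrichment and by −log10 q. By pileup it ranked 3, behind peaks of 293 and 292 fragments whose backgrounds were 6.53 and 5.60 and whose fold enrichments were 39.0 and 44.4. The next peak by fold enrichment reached 59.98 (53.0 to 67.6), an interval that overlaps that of CDK12.

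The CDK12 peak was not wide for its strength. It spanned 905 bp, beside a median width of 319 bp over all 66954 peaks. The 100 peaks with the largest fold enrichment had a median width of 1553 bp, and 13 of those 100 were narrower than the peak at CDK12. Its summit lay 154 bp upstream of the canonical TSS, outside the transcript. No other peak was found over the CDK12 gene (chr17:37617739-37723812), and the nearest other peaks were 9486 bp to the left and 174974 bp to the right.

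CDK13 (ENSG00000065883, plus strand), the paralog of CDK12, had its best peak at chr7:39988050-39991378, with a pileup of 63 fragments and a fold enrichment of 13.8 (10.7 to 17.6). That peak was 3329 bp wide, the widest of the 10. Its summit lay 874 bp upstream of the canonical TSS, in an exon of CDK13-DT, a divergent long non-coding RNA whose promoter the peak also covers. The fold enrichment at CDK12 was 4.69 times that at CDK13 (counting interval 3.61 to 6.34), the widest gap between paralogs in the set. That CDK12 exceeds CDK13 was fixed by picking the set on the CDK12 peak, so nothing is read from this gap.

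CCNK (ENSG00000090061, plus strand), which encodes cyclin K, had its best peak at chr14:99947382-99948069 with a pileup of 56 fragments and a fold enrichment of 12.0 (9.15 to 15.6). The summit lay 29 bp downstream of the canonical TSS, in the 5′ untranslated region, and the peak also fell in the promoter window of SETD3. A second, weaker promoter peak with a fold enrichment of 4.20 (2.61 to 6.44) had its summit 698 bp upstream. CDK12 exceeded its cyclin by a ratio of 5.39 (4.09 to 7.41), a direction again fixed by the way the set was picked. The ratio of CDK13 to CCNK was 1.15 with a counting interval that included 1 (0.790 to 1.68).

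The P-TEFb genes were led by a cyclin rather than by the kinase. CCNT1 (ENSG00000129315, minus strand), the main cyclin T, had its best peak at chr12:49109855-49111599, with a pileup of 107 fragments (87.7 to 129.3) and a fold enrichment of 23.4 (19.2 to 28.3), above 96.2% of bound protein-coding genes. Its summit lay 308 bp upstream of the canonical TSS but 17 bp from the nearest TSS of another transcript. CDK9 (ENSG00000136807, plus strand), the kinase, had a pileup of 63 fragments at chr9:130547811-130549274 and a fold enrichment of 14.4 (11.1 to 18.3), with its summit also 29 bp downstream of the canonical TSS, in the 5′ untranslated region. CDK9 stood at 0.614 times CCNT1 (0.439 to 0.840).

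CCNT2 (ENSG00000082258, plus strand), the paralog of CCNT1, had 2 promoter peaks of similar height. The better one, at chr2:135676108-135677125, had a pileup of 47 fragments, a fold enrichment of 10.1 (7.51 to 13.4) and a summit 71 bp upstream of the canonical TSS. The other, whose summit lay 698 bp upstream and which was separated from the first by 143 bp, had a pileup of 41 and a fold enrichment of 9.44 (6.83 to 12.7). Both intervals overlap, so counting error alone does not order the 2 peaks. The first peak also lay at the promoter of the antisense gene CCNT2-AS1. The ratio of CCNT1 to CCNT2 was 2.31 (1.64 to 3.37), and that of CDK9 to CCNT2 was 1.42, with an interval that included 1 (0.961 to 2.13).

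The Mediator kinases also differed as a pair. CDK8 (ENSG00000132964, plus strand) had 1 compact peak of 735 bp at chr13:26827813-26828547, with a pileup of 112 fragments (92.2 to 134.8), a fold enrichment of 25.4 (20.9 to 30.5) and a summit 272 bp upstream of the canonical TSS. It was the second strongest peak of the set, stood above 97.0% of bound protein-coding genes, and had no other peak within 31129 bp. CDK19 (ENSG00000155111, minus strand), its paralog, had a broader peak of 2017 bp at chr6:111135669-111137685 with a pileup of 59 fragments and a fold enrichment of 13.5 (10.3 to 17.3). The summit lay 211 bp upstream of the canonical TSS and 43 bp from the nearest TSS. The ratio of CDK8 to CDK19 was 1.88 (1.37 to 2.65).

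The genes of the CDK-activating kinase held the weakest kinase peak. CDK7 (ENSG00000134058, plus strand) had the narrowest best peak, 370 bp at chr5:68530548-68530917, with a pileup of 41 fragments, a fold enrichment of 7.12 (5.16 to 9.60) and a summit 15 bp upstream of the canonical TSS. It stood above 35.7% of bound protein-coding genes. Its background of 4.90 was also the highest of the 10, which ranged from 3.45 to 4.90 with 4 genes at the floor of 3.45. Its pileup of 41 was the lowest of the 10, and the part of the background in its ratio was not tested. CCNH (ENSG00000134480, minus strand), encoding cyclin H, had a pileup of 56 at chr5:86708257-86709038, a fold enrichment of 11.3 (8.57 to 14.6), and a summit 34 bp downstream of the canonical TSS, in the 5′ untranslated region. That peak is shared with the promoter of a long non-coding RNA gene known only as ENSG00000285190. The ratio of CCNH to CDK7 was 1.58 (1.05 to 2.44), barely clear of 1.

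Of the 10 best peaks, 7 had a summit within 100 bp of an annotated TSS of the gene, against 58.6% of the 11941 bound protein-coding genes. The exceptions were CDK12, CDK8 and CDK13, at 154, 247 and 739 bp. A summit upstream of the canonical TSS was found at 7 of 10 genes and at 52.0% of bound protein-coding genes. The genes had 16 promoter peaks in all, with 1 peak at 5 genes, 2 at 4 genes and 3 at CDK9. Apart from the CCNT2 pair, the additional promoter peaks were weak, with 4.20 at CCNK as the strongest. At CDK9 they had fold enrichments of 3.15 and 3.37, at CCNT1 3.47 and at CDK13 2.73, where the peaks of 3.37, 3.47 and 2.73 lay at alternative starts inside the gene.

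**Figure D2:**
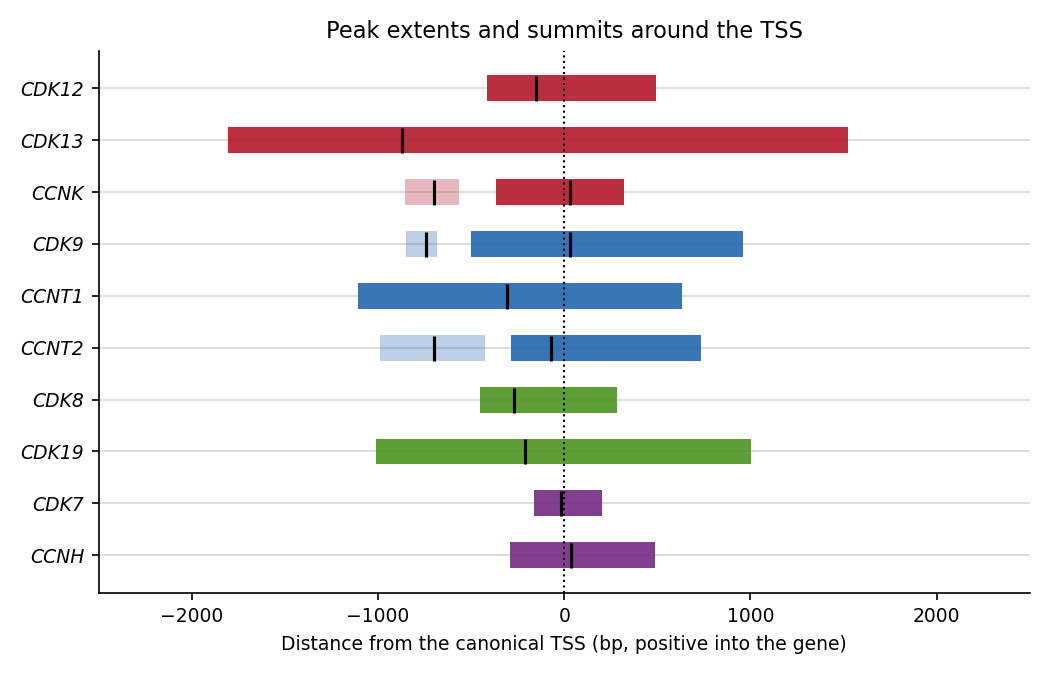
Peaks near the canonical TSS of each of the 10 genes, by distance from that TSS in bp and in the direction of transcription, with bars for peak extents, black ticks for summits, paler bars for the weaker promoter peaks and colours for the complexes. The CDK12 peak is 905 bp wide, the CDK13 peak 3329 bp, and 7 of the 10 best summits lie upstream of the canonical TSS.

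A total of 29 peaks lay over the genes but outside promoter windows, all of them weak, with fold enrichments from 2.26 to 4.24. CDK13 and CCNT2 held 9 each, CCNH held 7, and CDK9 and CCNT1 held 2 each. CDK12, CDK8, CDK19, CDK7 and CCNK held 0, as did 46.0% of all bound protein-coding genes, and 7.93% of those held 9 or more. By gene length the order differed. The short CDK9 gene had 39.1 such peaks per 100 kb from its 2 peaks, CCNT2 21.9, CCNH 7.41, CCNT1 7.01 and CDK13 6.02.

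The paralogs CDK12 and CDK13, both long genes, held 0 and 9 peaks outside promoter windows. Those at CDK13 had fold enrichments of 2.65 to 3.60, below the median of 3.79 over all peaks. Among 2387 bound protein-coding genes of at least 100 kb, the median was 1.18 per 100 kb (interquartile range 0.248 to 3.17), 86.0% lay below CDK13, and 23.8% had 0 such peaks, as did CDK12. The local background under the body peaks ranged from 3.52 to 4.66 at CDK13, from 3.45 to 6.53 at CCNT2 and from 4.16 to 5.60 at CCNH, beside 3.45 at the CDK12 promoter. Above the floor of 3.45 the local background stands for the input level. At the floor, as at the CDK12 promoter, it does not measure the local input. The part of the local background in these counts was not tested.

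**Figure D3:**
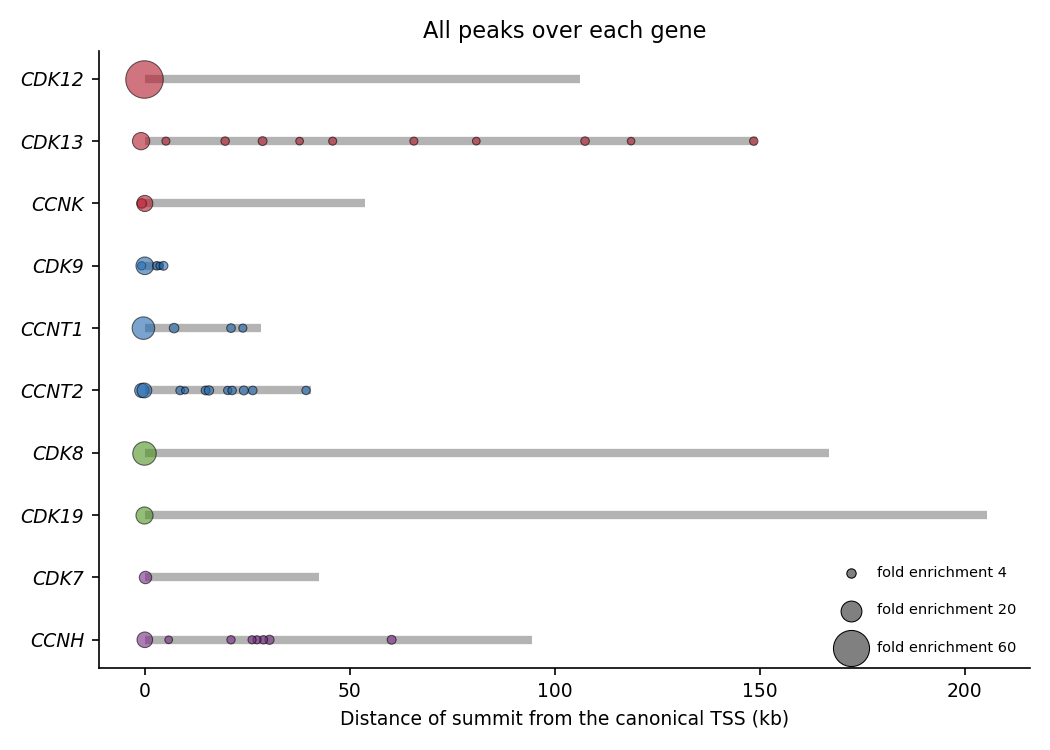
Summit of every peak at or over each of the 10 genes, in kb from the canonical TSS, with circle area growing with fold enrichment and grey bars for the genes. Peaks outside promoter windows number 9 at CDK13 and at CCNT2, 7 at CCNH, 2 at CDK9 and at CCNT1, and 0 at the other 5 genes.

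The sequence under the summits was not used to choose the genes. The motifs sought first, on both strands and within 50 bp of the summit, were the MYB site (NAACNG, with C or T first and G or T as the other N), the CHR element of late cell cycle genes (TTNGAA, with N as T or C), the CCAAT box, an E2F site (TTTCCCGC, with G also allowed at either of its first 2 C positions) and the ETS core CCGGAAGT. The MYB site was found at 0 of the 10 summits, and at 8.43% of the 10178 best promoter peaks of protein-coding genes. CHR (3.88% of those peaks), CCAAT (9.72%) and E2F (1.75%) were likewise at 0 of 10. The ETS core was at 1 of 10, CDK9, and at 3.48% of all. These are matches of letters in a window and say nothing about binding by the factors.

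Further motifs were chosen after the summit sequences of the 10 genes had been seen. The sequences below are taken from the summit windows with such a match, each read 5′ to 3′ on the strand of its gene in GRCh37. Capitals mark the matched letters. The windows are cut where they would show more than 30 bases of untranslated region. The first 3 carry TCTCGCG (which reads as CGCGAGA on the opposite strand), an arm of a palindromic element found in CpG island promoters that the protein BANP is known to bind. They are from chr17:37617535-37617635 (plus strand), chr12:49110752-49110848 (minus strand) and chr5:86708691-86708720 (minus strand).
CDK12: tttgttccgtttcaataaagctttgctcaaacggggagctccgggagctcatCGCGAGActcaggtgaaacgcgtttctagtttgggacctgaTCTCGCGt
CCNT1: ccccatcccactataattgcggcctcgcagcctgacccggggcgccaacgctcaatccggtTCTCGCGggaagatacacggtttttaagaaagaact
CCNH: ccctaggcttcCGCGAGAtcttcggtgggg

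TCTCGCG lay 5 bp from the summit at CDK12, 7 bp at CCNH and 14 bp at CCNT1, and was found at 3 of 10 genes against 4.29% of the 10178 best promoter peaks. CDK12 had 2 matches within 50 bp of its summit, as had 120 of all peaks (1.18%), and 4 in the whole peak, a number that 18 peaks (0.177%) reached or passed. The full palindrome was at 91 of the peaks and at 0 of the 10 genes. Across all best promoter peaks divided by fold enrichment into 10 equal groups, the share with TCTCGCG was 1.18% (exact binomial interval 0.611 to 2.05) in the weakest group and 18.3% (15.9 to 20.8) in the strongest, where fold enrichment ran from 16.2 to 64.9. CDK12 and CCNT1 fell in the strongest group with a match and CDK8 without one, and CCNH fell in the 8th group. Over the 437 peaks with the arm the median fold enrichment was 14.4, against 8.15 for those without, and the arm lay a median of 16 bp from the summit. Other elements of the set were also more frequent in the strongest group than in the weakest. The share with the short ETS core CGGAAGT was 0.688% in the weakest and 6.78% in the strongest, that with the CRE core TGACGT 1.08% and 5.41%, and that with the YY1 element AAGATGGC 0.492% and 1.97%. For the NRF1 element GCATGCGC it was 0.688% (0.277 to 1.41) and 1.57% (0.902 to 2.54). For the ZNF143 element CCAGAATGC it was 0% (0 to 0.362) and 0.688% (0.277 to 1.41). The intervals of NRF1 overlap, as do those of ZNF143. Whether TCTCGCG differs from the other elements in this was not tested. These values include the peaks that brought the motifs to attention.

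**Figure D4:**
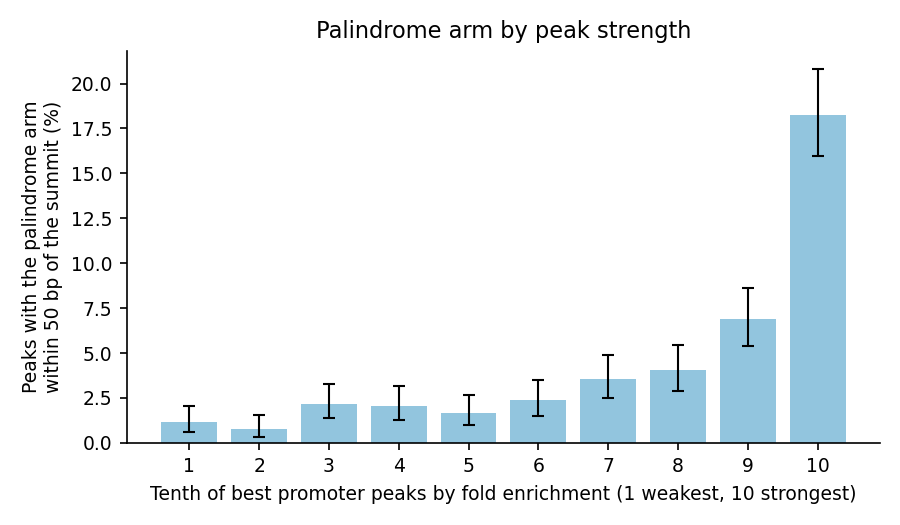
Percent of best promoter peaks of protein-coding genes with TCTCGCG within 50 bp of the summit, by 10 equal groups of fold enrichment from weakest to strongest, with exact binomial 95% intervals. The share is 1.18% in the weakest group, 6.88% in the 9th and 18.3% in the strongest, which holds CDK12 and CCNT1.

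The other matches differed from gene to gene. The next sequences show CDK9 and CDK7 with the shorter ETS core CGGAAGT (contained in CCGGAAGT), CDK8 with the ZNF143 element CCAGAATGC (on the opposite strand), CCNT2 with the NRF1 element GCATGCGC (its match occurs on both strands and is capitalised as a whole), and CCNK with the CRE core TGACGT and the YY1 element AAGATGGC. They are from chr9:130548292-130548342, chr5:68530648-68530677, chr13:26827944-26828044, chr2:135676271-135676300 and chr14:99947725-99947775, all on the plus strand. Because of the cut, the summits of CDK7 and CCNT2 lie outside the stretches shown. At CDK7 the CGGAAGT match nearest the summit, 14 bp away, is also cut off, and a farther match is shown.
CDK9: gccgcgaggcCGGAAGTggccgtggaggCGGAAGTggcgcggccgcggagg
CDK7: cagcttcctccgcccaccaCGGAAGTgagg
CDK8: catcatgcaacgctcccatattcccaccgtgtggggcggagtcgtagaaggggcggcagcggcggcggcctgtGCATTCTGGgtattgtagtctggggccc
CCNT2: ccccGCGCATGCGCaagggcggaggcggtg
CCNK: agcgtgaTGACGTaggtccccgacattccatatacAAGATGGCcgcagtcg

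CGGAAGT was at 2 of 10 summits and at 5.64% of all best promoter peaks. The remaining elements were each at 1 of 10. Among all best promoter peaks the ZNF143 element was the rarest at 0.197%, followed by NRF1 at 1.25%, YY1 at 2.41% and CRE at 3.46%. CDK13 and CDK19 held none of these elements within 50 bp of the summit. The short MYB core AACNG, which every MYB site of the kind above contains, was at 4 of 10 (CDK12, CDK13, CDK19 and CCNT1) and at 38.7% of all, a share near that of the set. By peak strength, the share with AACNG was 39.5% (36.5 to 42.6) in the weakest group and 43.7% (40.6 to 46.8) in the strongest. These exact binomial intervals overlap. Within 100 bp of the summit a MYB site was found at 3 genes, CDK12, CCNT1 and CCNH, against 16.2% of all, at distances of 87.5, 69.5 and 67.5 bp. These are the same 3 genes that carry TCTCGCG. How often both occur together among all best promoter peaks is not given, so nothing is read from this overlap.

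Of 83 related genes, 80 were bound, with a median fold enrichment of 10.3. They comprised genes that work with the 10 and other CDKs and cyclins of splicing and transcription. MED29 and PAF1, from different lists, share 1 peak, which counts for both. The background was 59.4% of all protein-coding genes and 79.1% of those with CpG-rich promoters, with a median of 8.67 over bound protein-coding genes. How many genes of these lists have CpG-rich promoters is not given, so nothing is read from their counts. Of the partners of CDK8 and CDK19, all 5 had a promoter peak, with a median of 6.07, the lowest of the lists. CCNC, the cyclin of the module, was highest at 13.2 (10.4 to 16.6), close to CDK19, and MED12L, a variant of its MED12 subunit, was lowest at 3.82. Core Mediator had peaks at 26 of 26 genes with a median of 9.10, from MED24 at 3.98 to MED22 at 31.5, where the peak is shared with RPL7A. The other genes of CDK7's complex, TFIIH, had peaks at 7 of 8, with a median of 12.4, from MNAT1, the assembly factor of the kinase, at 10.1 to GTF2H3 at 17.7, a peak shared with EIF2B1. All 7 values were larger than that of CDK7 itself, and the counting intervals of MNAT1, ERCC3, GTF2H5 and GTF2H1 overlap that of CDK7. The last 3 were named after their values were seen. Overlap of single intervals does not settle an order, as CCNH shows, whose interval overlaps that of CDK7 while their ratio interval excludes 1. No ratio interval to CDK7 was taken for these TFIIH genes. GTF2H2 had no promoter peak.

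Around P-TEFb, 13 of 14 regulators and elongation partners were bound with a median of 9.55. They ranged from ELL3 at 4.40 (shared with SERF2) to MEPCE, which caps the RNA that holds P-TEFb inactive, at 25.95 (shared with ZCWPW1), and ELL2 had no promoter peak. The pausing factors DSIF and NELF, which CDK9 phosphorylates, had peaks at 6 of 6 genes and the highest median, 14.9. Their values ran from NELFCD at 8.31 (shared with ENSG00000285091) to SUPT5H at 34.8. The PAF1 elongation complex had peaks at 6 of 6 with a median of 10.1, from RTF1 at 6.36 to LEO1 at 22.7 (shared with MAPK6). Of the RNA polymerase II subunits, the substrate complex of these kinases, 11 of 12 were bound with a median of 10.3. POLR2F was lowest at 5.84 (shared with C22orf23), POLR2A, whose tail the kinases phosphorylate, was highest at 28.8 (shared with ZBTB4), and POLR2J had no promoter peak. GTF2H2 and POLR2J have 2 and 3 annotated genes of near-identical name, whose sequences were not compared. If these are copies, reads there may not be assigned to 1 place. The study's reporting summary lists a filter on mapping quality, which may have dropped such reads. The missing peaks are therefore uncertain.

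Other CDKs and cyclins with roles in splicing and transcription had peaks at 6 of 6 genes with a median of 8.60, from CCNQ at 4.49 to CCNL1, a cyclin L, at 23.6. CDK11A and CDK11B, at 5.84 and 5.39, are also near-identical in name, so the same uncertainty about reads may hold for them. They were named after their values were seen. The cell cycle CDKs and cyclins, the most similar family, were bound at 11 of 12 with a median of 12.8, beside 13.7 for the transcriptional set. They ran from CCNE2 at 4.72 (shared with NDUFAF6) to CCND1 at 34.5 (shared with LTO1), and CCNE1 had no promoter peak. The CCND1 peak spans chr11:69451051-69472476, far more than a promoter window, and where its summit lies is not given. A fold enrichment of at least 10 was reached by 6 of the 12 cell cycle genes and by 9 of the 10 transcriptional ones. The background was 23.1% of protein-coding genes and 32.7% of those with CpG-rich promoters. Of the 83 related transcription genes 45 reached it, among them 7 of 8 for TFIIH, 5 of 6 for DSIF and NELF and 2 of 5 for the Mediator kinase partners. These differences were not tested, and nothing is read from the count of the set. That CDK12 exceeds every gene of these lists was fixed by the way the set was picked.

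**Figure D5:**
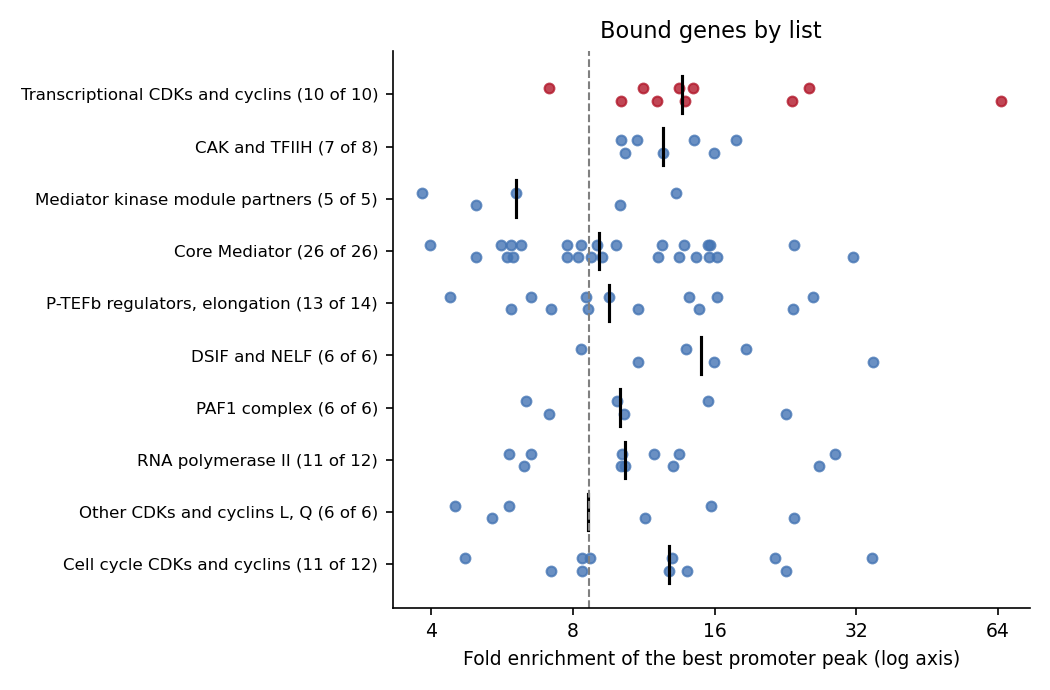
Fold enrichment of the best promoter peak (log axis) for each bound gene of the transcriptional set and of 9 lists of related genes, with a bar at each list's median and a dashed line at the median of all bound protein-coding genes (8.67). Medians run from 6.07 for the Mediator kinase partners to 14.9 for DSIF and NELF, and CDK12, on whose rank the set was picked, lies at 64.9.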

How the data were processed

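ChIP-seq peaks of MYBL2 were analysed in A673 cells (1 ChIP and 1 input library). By the account in the study's methods, Bowtie2 placed the single-end reads on hg19, and the authors called narrow peaks against the input with MACS2 (version 2.0.10 in the submitters' processing notes). The list was then cleaned in a way not given in the sources used here. The deposited values are fold enrichment (a linear ratio), −log10 p, −log10 q and a score, which was 10 times the −log10 q, without its decimals, at all 66954 peaks. Summit positions were also deposited.

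Pileup and background were solved from fold enrichment and p. A whole-number pileup was found for all 66954 peaks and missed the deposited −log10 p by 3.49e-05 at most. The implied depth used the MACS2 preset genome size of 2700000000 bp. Genes and 193738 TSSs (chromosomes 1 to 22 and X) came from GENCODE v44 lifted to GRCh37, and sequences came from the GRCh37 genome, which no peak exceeded. Ratios of fold enrichments have 95% intervals for counting error. CpG ratios were taken over 500 bp either side of the canonical TSS. One gene was matched by an older symbol.

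The 10 genes and all lists were chosen with earlier results of these data known. Named were the 10 genes and, of each list, the highest, the lowest and any gene without a promoter peak. A few other genes of the lists were named after their values were seen. Python 3.11.15, pandas 2.3.3, scipy 1.17.1 and pysam 0.24.0 were used, and scripts were tested on simulated data.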

Additional observations from a re-analysis of the deposited data

How the results depend on the processing

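Of 83 alternative values, 80 stayed within their counting interval or within 1.5 times the count reported. All 10 genes kept a promoter peak at −log10 q of at least 5, at fold enrichment of at least 5, in windows of 500 bp either side or 5000 bp upstream to 1000 bp downstream, with the summit in the window, and with the outermost TSS. The best peak of each gene was the same in all 50 alternatives tried for single genes. The 3 exceptions were the rank of the CDK12 peak, which was 3 by pileup, the MYB site within 100 bp of the summit, found at 3 genes rather than 0, and NRF1 within 100 bp, found at 2. The related genes bound ranged from 74 to 80 of 83. The CpG-rich background, the limit of 10, the added motifs and the median without CDK12 were chosen after seeing the data. The depth limits comparisons between weak peaks, and neither library has a replicate. No paired analysis was possible because there was 1 ChIP and 1 input library.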
